A study of Rattus norvegicus with 14 samples.

Results

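The windows described here are stretches of the rat genome in which the methylation table lacks values mainly in the samples of a single selected line. Of 188511 windows of 1000 bp on chromosomes 1 to 20 (194367 windows in all), 3671 had a value in all 8 LCR samples and lacked it in 2 of the 6 HCR samples. Another 1783 had a value in all 6 HCR samples and lacked it in 3 or 4 of the 8 LCR samples. They are called the HCR-missing and the LCR-missing windows below. Both sets were selected on their missing values, so the numbers of missing values and the samples that lack them are given as a description, whereas methylation levels played no part in the selection. The table holds windows with values in at least 4 samples of each line, so 2 missing HCR values and 4 missing LCR values are the most that can occur.

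In vertebrate genomes most cytosines followed by guanine (CpG) are methylated, while CpG-rich stretches at many gene starts stay unmethylated. Reduced representation bisulfite sequencing (RRBS) cuts DNA with the enzyme MspI at CCGG sites, keeps short fragments, and reads as unmethylated those cytosines that bisulfite has converted. A window receives a level in a library only where such fragments were sequenced there. No source used here says when the table leaves a value out, and a missing value is not a level of 0.

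The DNA was taken at baseline from the left soleus, a muscle of posture in which slow fibres predominate, of female rats 23 to 24 months old. The rats belonged to generation 44 of the high-running-capacity (HCR) and low-running-capacity (LCR) lines, both bred by selection from the genetically heterogeneous N:NIH stock, and were fed standard chow. There were 6 HCR and 8 LCR samples, numbered as replicates. Whether every sample is a separate animal is not stated, so all p-values rest on the variation among these samples, part of which may be technical. A whole muscle holds several cell types, and a different mix of cells cannot be told apart from different methylation within a cell. No read counts were given, so depth is unknown and all errors are spreads between samples.

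Missing values were unequal between samples of both lines. HCR samples lacked a value in 2.48% (replicate 2) to 8.79% (replicate 3) of the autosomal windows, with a median of 4.96%. LCR samples lacked it in 1.40% (replicate 4) to 12.1% (replicate 7), with a median of 5.30%. The means were 5.21% ± 2.26 (SD, n = 6) and 5.09% ± 3.67 (SD, n = 8), so the lines differed by less than the spread within either of them. A value in every sample was present in 131799 windows (69.9%).

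The HCR-missing windows made up 1.95% of the autosomal windows, and the LCR-missing windows 0.615% (3 values missing) and 0.330% (4 missing). Just outside the first set lay 10654 windows that lacked 1 HCR value and no LCR value, with a median level of 52.4%, and 4405 that lacked 2 HCR values and 1 LCR value, with a median of 52.6%. The 3671 windows inside had a median of 52.0%. Just outside the second set lay 3042 windows that lacked 2 LCR values and no HCR value, with a median of 53.0%, and 3115 that lacked 3 or 4 LCR values and 1 HCR value, with a median of 53.8%. Inside, 1160 windows lacked 3 LCR values (median 53.1%) and 623 lacked 4 (median 57.0%). Apart from the windows that lacked 4 LCR values, all these medians lay between 52.0% and 53.8%. Outside the autosomes the same rules were met by 106 and 87 of the 5463 windows on chromosome X, and these are not described further.

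In the HCR-missing windows each HCR sample contributed missing values nearly in proportion to its missing values elsewhere. HCR replicate 3 lacked a value in 1878 of the 3671 windows (51.2%), which was 25.6% of the missing values in the set, against 28.1% of all missing HCR values on the autosomes. HCR replicate 2, the HCR sample with the fewest missing values, lacked a value in 623 windows (17.0%), which was 8.49% of the missing values against 7.94% of all. The ratio of the share in the set to the share over all autosomal windows ran from 0.910 in HCR replicate 3 to 1.07 in HCR replicate 4. All 6 HCR samples therefore stood within a narrow range around 1.

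In the LCR-missing windows the LCR samples with the fewest missing values were missing more often than in proportion. LCR replicates 1, 3 and 4 each lacked a value in under 2% of the autosomal windows (1.45%, 1.75% and 1.40%) but in 22.0%, 23.1% and 19.8% of the LCR-missing windows. Their shares of the missing values were 6.58%, 6.88% and 5.91% in the set against 3.57%, 4.30% and 3.43% over all autosomal windows, ratios of 1.84, 1.60 and 1.72. LCR replicate 7, with the most missing values, held 20.5% in the set against 29.6%, a ratio of 0.692. A window that lacks 3 or 4 of 8 values spreads them over more samples by its definition, so windows that lacked 3 or 4 LCR values and also at least 1 HCR value are given as a second comparison. There replicates 1, 3 and 4 held 4.92%, 5.47% and 4.65% of the missing LCR values, and replicate 7 held 21.6%. The 3 samples thus held larger shares in the LCR-missing windows than in either comparison. At least 1 of these 3 samples was missing in 931 of the 1783 windows (52.2%), and at least 2 were missing in 202 (11.3%).

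**Figure D1:**
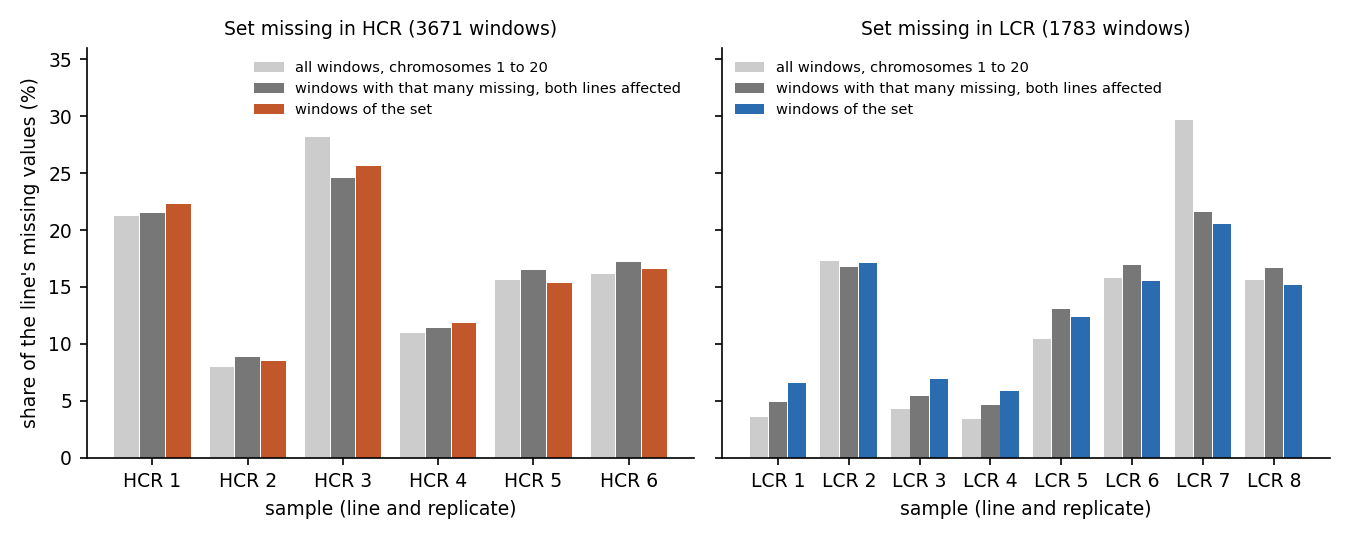
Share of a line's missing values (%, vertical axis) contributed by each sample (horizontal axis) over all autosomal windows (light grey), over windows with as many values missing in that line and at least 1 missing in the other line (dark grey), and over the HCR-missing (left, orange) or LCR-missing windows (right, blue). The orange bars follow the grey ones, whereas for LCR replicates 1, 3 and 4 the blue bars, at 5.91% to 6.88%, are the highest of the 3.

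All 15 pairs of HCR samples occurred among the HCR-missing windows, at unequal numbers and levels. Replicates 1 and 3 were missing together most often, in 726 windows (19.8%), followed by replicates 3 and 6 in 458 and replicates 1 and 5 in 310. The least frequent pair was replicates 2 and 6, with 87 windows, and the pair of samples with the fewest missing values, replicates 2 and 4, had 95. The median level was 59.1% in the windows that lacked replicates 1 and 3 and 34.6% in those that lacked replicates 2 and 4. The levels in LCR, where no value was missing, differed in the same way. Where HCR replicate 3 was missing, the median LCR level was 56.6%, and where it was present it was 43.6%. Where HCR replicate 4 was missing, the median LCR level was 43.1%, and where it was present it was 53.5%. For HCR replicate 1 the 2 medians were close, at 51.8% without and 51.2% with a value. Among the LCR-missing windows the corresponding medians of the HCR level were 56.3% without and 51.1% with a value in LCR replicate 7, and 51.3% without and 56.1% with a value in LCR replicate 1. LCR replicates 3 and 4, which also had few missing values, did not follow replicate 1. Their medians were 56.4% without and 54.5% with a value in replicate 3, and 54.9% and 55.0% for replicate 4.

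**Figure D2:**
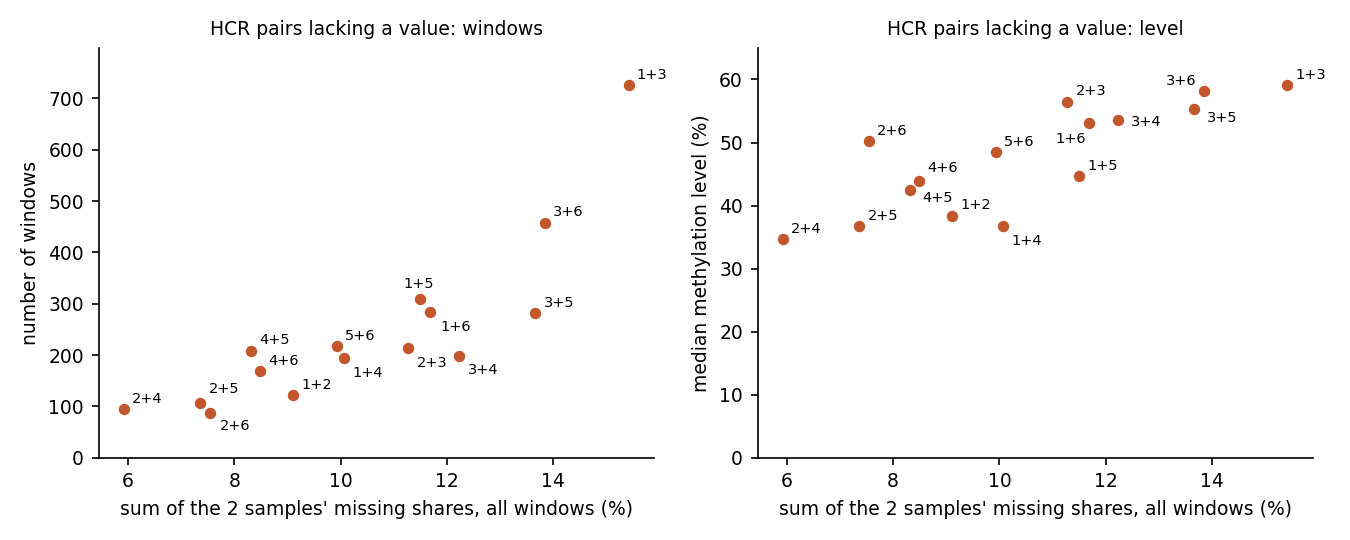
HCR-missing windows by the pair of HCR replicates that lack a value (labels), with the sum of the shares of autosomal windows that the pair's samples lack (%) on the horizontal axes and the number of windows (left) or their median methylation level in % (right) on the vertical axes. The pair 1+3 stands highest in both panels, with 726 windows and 59.1%, and the pair 2+4 is at the left with 95 windows and 34.6%.

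Combinations of LCR samples were more diverse. Of the 126 possible sets of 3 or 4 samples 116 occurred, 42 of them in 5 windows or fewer. Replicates 2, 7 and 8 were missing together most often, in 114 windows (6.39%), and replicates 6, 7 and 8 in 106 (5.95%). Counted over all combinations, the pair most often missing together was replicates 7 and 8, in 639 of the 1783 windows (35.8%).

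Both sets were poor in unmethylated windows and rich in windows of middle and high level. The median level was 52.0% in the HCR-missing windows (quartiles 33.3% and 65.5%) and 54.5% in the LCR-missing windows (33.9% and 68.1%), against 42.3% over all autosomal windows (14.7% and 61.6%). Windows under 10% methylation made up 5.61% and 6.34% of the sets and 20.7% of all windows. Windows at 70% or more made up 17.5% and 21.1% of the sets and 13.1% of all windows. The same shift was present in windows whose missing values fell on both lines. Their median was 52.5% with 1 missing value in each line (7081 windows) and 53.0% with 3 or 4 missing in total (14474 windows). Windows with complete values had a median of 35.0%. The levels of the sets thus lay near those of other windows with missing values.

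**Figure D3:**
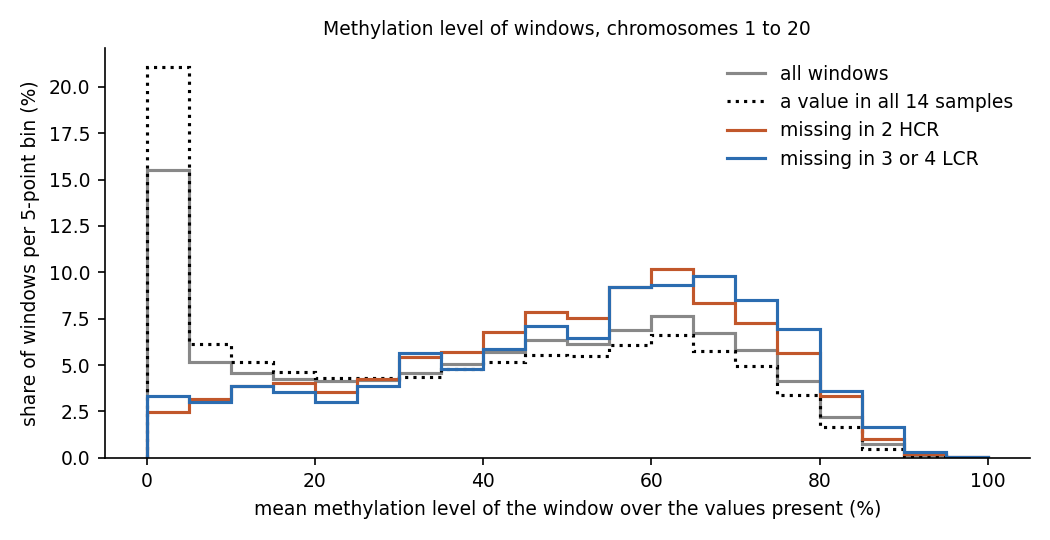
Share of windows (%, vertical axis) per 5-point bin of mean methylation level (%, horizontal axis) for all autosomal windows (grey), windows with a value in all 14 samples (black dotted), HCR-missing windows (orange) and LCR-missing windows (blue). The peak near 0 is small in both sets, which hold 5.61% and 6.34% of their windows under a level of 10%.

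The values present varied more between samples than in complete windows of the same level. Among windows with a mean level of 50 to 70%, the median SD was 7.59 points between HCR samples and 7.97 points between LCR samples in the HCR-missing windows. It was 7.99 and 8.08 points in the LCR-missing windows, and 5.37 and 5.40 points in windows of this level with a value in all 14 samples. The larger spread was present in both lines of each set, including the line with no missing value. Windows of this level with 1 missing value in each line had 8.08 and 8.02 points. Values of exactly 0 made up 2.08% and 1.99% of the values in the sets against 1.37% over all autosomal windows, and values of exactly 100% made up 0.263% and 0.326% against 0.118%. Other windows with missing values had similar or higher shares. Values of 0 made up 1.83% with 1 missing in each line and 2.06% with 3 or 4 missing over both lines. Values of 100% made up 0.384% and 0.479% there.

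Both sets were spread over all 20 autosomes. The HCR-missing windows ranged from 1.54% of the windows on chromosome 12 (123 windows) to 2.64% on chromosome 11 (139). The LCR-missing windows ranged from 0.658% on chromosome 3 (89) to 1.31% on chromosome 13 (94). Chromosome 12, lowest for the first set, held 1.29% for the second, while chromosome 11, highest for the first, held 0.798%. Neighbouring windows are not independent, and no test was made of these shares. Windows within 1 Mb of the first or last window of a chromosome made up 1.01% of the HCR-missing and 1.29% of the LCR-missing windows, against 1.32% of all. Fewer members than windows in general had a direct neighbour in the table: 35.3% and 39.3% had a measured window directly beside them, against 46.4% of all windows and 36.6% of windows with 1 missing value in each line.

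Most members had no other window of their set within 10 kb. Of the HCR-missing windows 342 (9.32%) had another HCR-missing window within 10 kb and 136 (3.70%) directly beside them, and the median distance to the nearest was 158 kb. Of the LCR-missing windows 155 (8.69%) had another within 10 kb and 91 (5.10%) directly beside them, with a median distance of 305 kb. Windows with 1 value missing in each line had another such window within 10 kb in 12.2% and directly beside them in 3.77%. With 3 or 4 missing over both lines the shares were 21.9% and 6.13%. These shares also depend on the size of a set, and the comparison sets are larger (7081 and 14474 windows). Whether members lie closer together than an even scatter would place them was not tested. Joined at distances of up to 10 kb, the HCR-missing windows formed 166 clusters of at least 2 windows, 9 of which held 3 or more, and the LCR-missing windows formed 72, of which 6 held 3 or more.

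Adjacent members mostly lacked the same samples. Of 69 adjacent pairs of HCR-missing windows 57 (82.6%) lacked the same 2 HCR samples, whereas 25 of 107 consecutive members at 2 to 10 kb did so (23.4%). The share was 15.3% at over 10 to 100 kb, 12.2% at over 100 kb to 1 Mb and 12.3% at over 1 Mb. Of 47 adjacent pairs of LCR-missing windows 33 (70.2%) lacked the same LCR samples, against 9 of 36 at 2 to 10 kb (25.0%). There the share was lower at each longer distance, from 19.6% at over 10 to 100 kb to 11.1% at over 100 kb to 1 Mb and 4.09% at over 1 Mb. Adjacent windows that lacked 1 value in each line shared both samples in 93 of 134 pairs (69.4%), and such windows at 2 to 10 kb did so in 6.07%. Adjacent windows that lacked 3 or 4 values over both lines shared all of them in 177 of 449 pairs (39.4%), and at 2 to 10 kb in 1.61%. In both comparisons, too, direct neighbours shared their missing samples more often than windows farther apart. For adjacent pairs with 1 value missing in each line the share was close to that of the LCR-missing windows. For those with 3 or 4 missing over both lines it was lower than in either set. The numbers of possible combinations differ, and the differences were not tested. When only windows with a value in HCR replicate 3 were kept, 80.0% of 35 adjacent pairs lacked the same samples, and with a value in LCR replicate 7 it was 70.6% of 17.

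The windows around the members, other members left out, lacked the same samples most often at 1 kb. In windows directly beside an HCR-missing window, the HCR samples that it lacked were missing in 10.1%, the HCR samples that it had in 3.67%, and the LCR samples in 4.74%. At 2 kb these shares were 4.82%, 4.27% and 4.49%. Beside an LCR-missing window, the LCR samples that it lacked were missing in 13.0% at 1 kb, those that it had in 2.93%, and the HCR samples in 4.23%. At 2 kb the values were 6.68%, 3.79% and 4.39%, and at 51 to 100 kb 5.98%, 3.41% and 4.42%. Compared sample by sample, which removes the unequal missing rates, the share at 1 kb was higher next to windows lacking that sample in 6 of 6 HCR and 8 of 8 LCR samples. At 2 kb it was higher in 4 of 6 and 5 of 8. In the distance classes from 3 to 100 kb the share was higher in 3 to 5 of the 6 HCR samples and in 7 of the 8 LCR samples. Whether the sets differ in this was not tested.

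**Figure D4:**
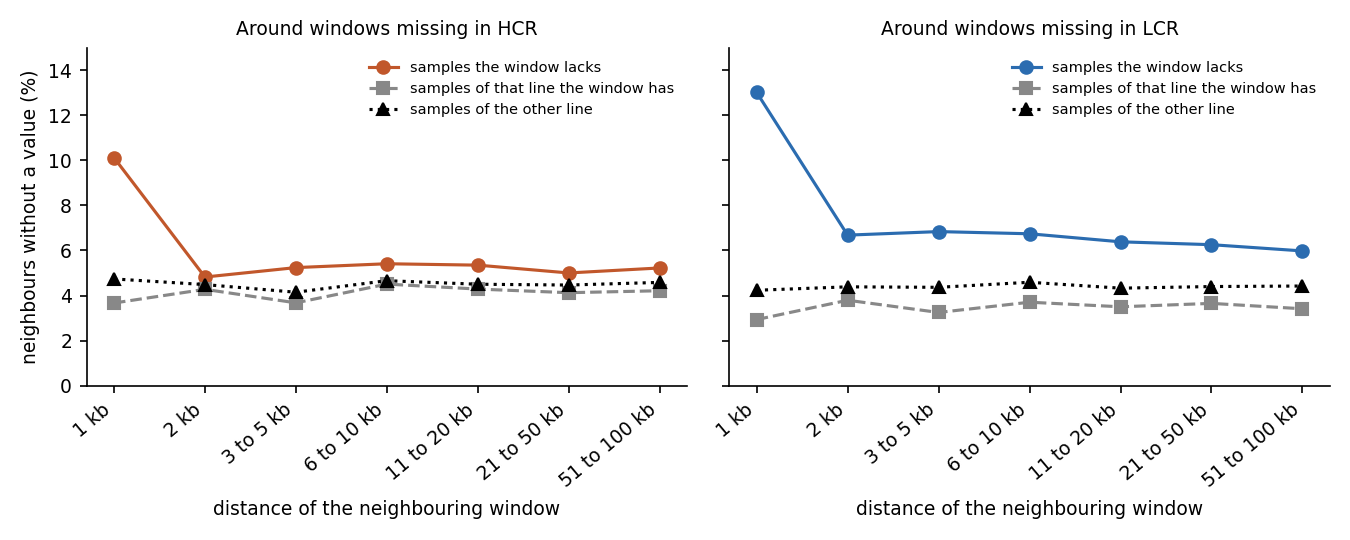
Share of neighbouring windows without a value (%, vertical axis) by distance from an HCR-missing (left) or LCR-missing window (right), for the samples that the window lacks (circles), the samples of that line that it has (squares) and the samples of the other line (triangles). Circles stand at 10.1% and 13.0% at 1 kb and drop to 4.82% and 6.68% at 2 kb.

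A few stretches went beyond direct neighbours. The cluster with the most HCR-missing windows lay on chromosome 10 at 50463001 to 50469000 (rn7, as all positions) and held 4 of them. Each lacked HCR replicates 2 and 3, and so did the fifth measured window of the stretch, which also lacked LCR replicate 2. The 4 windows were methylated at 54.9% to 80.2%, HCR stood 0.342 to 4.38 points above LCR, and 4 measured windows within 20 kb had a value in every sample. HCR replicates 2 and 3 were also the samples missing from 3 consecutive windows on chromosome 9 at 2865001 to 2868000, at levels of 58.0% to 79.5% and with HCR minus LCR from -1.87 to 6.52 points. On chromosome 13 at 54724001 to 54729000, HCR replicates 1 and 5 were missing from 3 members and from the other measured window between them. HCR stood 5.39 to 13.6 points above LCR there. In none of these 10 member windows did the difference between the lines pass the test described below.

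The cluster with the most LCR-missing windows lay on chromosome 12 at 3920001 to 3927000 and held 6 of the 7 measured windows. LCR replicates 1, 2 and 7 were missing from all 6, and replicate 8 from the window at 3924001 as well. The window between them, at 3925001 to 3926000, had a value in all 14 samples. The levels of the 6 windows ran from 70.1% to 88.9%, and HCR minus LCR from -3.01 to 7.20 points. LCR replicate 1, which lacked only 1.45% of autosomal windows, was thus without a value in 6 of 7 windows here. On chromosome 9 at 10090001 to 10102000, 4 members lacked 3 different combinations of LCR replicates, replicates 6 and 7 being absent from each, at levels of 27.4% to 74.6% and with HCR minus LCR from -5.71 to 11.1 points. On chromosome 1 at 68401001 to 68414000, 4 members lacked LCR replicates 1 and 4 throughout, with replicate 2, replicate 3 or both, at levels of 54.2% to 77.7%. HCR minus LCR ran from -8.62 to 0.659 points there. LCR replicates 1, 3 and 4, the LCR samples with the fewest missing values, were thus among those absent here. None of these 14 windows was called different between the lines.

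Over the sets, the HCR level was slightly above the LCR level, as it was over all autosomal windows. The median difference, HCR minus LCR, was 1.49 percentage points in the HCR-missing windows (quartiles -2.30 and 5.36) and 0.653 points in the LCR-missing windows (-2.67 and 4.77), against 0.574 points over all autosomal windows. Other windows with missing values also stood above that. The median was 1.14 points with 1 HCR value and no LCR value missing, and 1.16 with 2 HCR values and 1 LCR value missing. With 1 value missing in each line it was 0.993 points, and with 3 or 4 over both lines 0.910. It was 0.819 points with 3 or 4 LCR values and 1 HCR value missing, but 0.517 with 2 LCR values and no HCR value missing. HCR was higher in 2222 of 3671 (60.5%) and 999 of 1783 windows (56.0%), against 62.5% of all windows of the table. Differences of at least 10 points were found in 537 (14.6%) and 239 windows (13.4%), against 6.46% of all, and in 14.4% of the windows with 3 or 4 values missing over both lines. Averaged per sample, the HCR-missing windows stood at 49.3% ± 3.90 for the 6 HCR samples and 48.2% ± 1.31 for the 8 LCR samples (mean ± SD). The LCR-missing windows stood at 50.5% ± 1.08 and 49.2% ± 1.82. In the line with missing values the samples do not average the same windows. HCR replicate 3, for example, had values in 1793 HCR-missing windows, with a mean of 42.1%, and the other HCR samples averaged 48.7% to 52.9% over theirs. Over windows with complete values the sample means ran from 33.0% in LCR replicate 7 to 36.7% in HCR replicate 4, and the lines averaged 35.6% ± 0.984 (HCR) and 34.5% ± 1.04 (LCR). HCR replicate 3 had the lowest HCR mean there, 33.8%, and was the HCR sample most often missing in the HCR-missing windows. LCR replicate 7 was likewise the LCR sample most often missing in the LCR-missing windows. A window's line mean leaves out the samples it lacks, and the part of this in the median differences was not tested. With each sample centred on its mean level over windows with complete values, the median differences were 0.213 points in the HCR-missing and -0.283 points in the LCR-missing windows. Centring takes about the gap between the line means out of every window's difference, so these values do not compare with the uncentred ones. The uncentred median difference of the complete windows themselves was 0.503 points, less than that gap, so centring turns it negative.

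The lines were compared in each window with limma on log2 logit levels (log2 of the methylated over the unmethylated fraction, with 0.01 added to each), over all 194367 windows, and a window was called at a Benjamini-Hochberg adjusted p under 0.05. Of all windows 0.366% were called. Among the HCR-missing windows 9 of 3671 were called (0.245%), 7 higher and 2 lower in HCR. Among the LCR-missing windows 11 of 1783 were called (0.617%), 4 higher and 7 lower in HCR. Both shares were of the order of that in the whole table, where 0.242% were called higher and 0.125% lower. The share was 0.193% with 3 or 4 values missing over both lines and 0.204% with 2 HCR values and 1 LCR value missing. It was 0.193% with 3 or 4 LCR values and 1 HCR value missing, and 0.559% with 2 LCR values and no HCR value missing. Of the 11 LCR-missing calls, 10 lay in windows that lacked 3 LCR values (0.862%) and 1 in those that lacked 4 (0.161%). These differences were not tested. With an unadjusted p under 0.05 there were 382 (10.4%) and 181 windows (10.2%), against 9.94% of all. For the fits, centring was done on each sample's mean log2 logit over windows with complete values, not on its mean percent level. With each sample so centred the HCR-missing calls were again 9, but 4 higher and 5 lower in HCR. The LCR-missing calls were 3 higher and 7 lower. These counts moved with the fit. Untransformed levels gave 15 HCR-missing and 13 LCR-missing calls, an offset of 0.05 gave 14 and 14, and leaving the windows with complete values out of the fit, an alternative chosen after seeing the data, gave 4 and 6. Of the 20 calls 10 were lost in that last fit and 6 without moderation of the variance. The samples of the lines did not overlap in 40 HCR-missing (1.09%) and 31 LCR-missing windows (1.74%), against 0.868% of all windows. Fewer values make such a gap easier, and the share was 1.35% in windows with 3 or 4 values missing over both lines, 1.38% with 2 HCR values and 1 LCR value missing, and 1.89% with 3 or 4 LCR values and 1 HCR value missing.

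The HCR-missing window with the largest difference lay on chromosome 13 at 61611001 to 61612000, where the LCR samples were nearly unmethylated. HCR replicates 2, 3, 5 and 6 had 35.6%, 51.4%, 47.0% and 47.3%. Of the 8 LCR samples 6 were listed at 0, replicate 5 had 3.42% and replicate 2 had 6.70%. The groups were far apart, with means of 45.3% ± 6.78 (SD, n = 4) and 1.27% ± 2.50 (SD, n = 8) and a difference of 5.73 ± 0.59 (SE) in log2 logit units (adjusted p = 0.000848 by limma). For the 6 samples at 0 the log2 logit is fixed by the offset of 0.01, so the size of that difference depends on it: with an offset of 0.05 it was 3.88 (limma adjusted p = 4.91e-05). The difference in levels was 44.1 points. No other window was measured within 10 kb of it.

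On chromosome 10 at 82673001 to 82674000 HCR replicates 2, 4 and 6 had 72.2%, 66.7% and 66.7% and replicate 3 had 29.8%, while the LCR samples ran from 7.47% to 23.5% with a mean of 14.9%. All 4 HCR values lay above all LCR values (difference 43.9 points, limma adjusted p = 0.0124). Leaving out HCR replicate 2, 4 or 6 ended the call, with adjusted p of 0.0531, 0.0513 and 0.05005 by limma. On chromosome 16 at 67131001 to 67132000 the HCR samples lay close together, from 65.5% to 68.5%, and the LCR samples ran from 17.4% to 40.7%. The difference was 38.1 points (limma adjusted p = 0.00248). The measured window at 67126001 to 67127000, in which every sample had a value, was called in the same direction, at 59.1% ± 8.39 for the HCR samples and 37.4% ± 7.23 for the LCR samples (limma adjusted p = 0.0380).

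The other called windows of this set differed less. On chromosome 4 at 178652001 to 178653000 HCR samples averaged 73.2% ± 7.76 (n = 4) and LCR samples 48.2% ± 7.75 (n = 8; limma adjusted p = 0.0342). On chromosome 5 at 143936001 to 143937000 the means were 48.1% ± 3.78 and 24.2% ± 6.38 (limma adjusted p = 0.0291). Its measured neighbour at 143935001 to 143936000, which lacked 4 values, had 54.4% and 45.4% and was not called. Lower in HCR was the window on chromosome 11 at 80839001 to 80840000. There HCR replicates 2, 3 and 4 had 33.3%, 33.3% and 30.6%, and replicate 6, at 55.8%, lay among the LCR samples, which ran from 53.6% to 70.4% (difference -25.4 points, limma adjusted p = 0.0393). The second lay on chromosome 2 at 698001 to 699000, with HCR values from 56.0% to 66.4% and LCR values from 75.2% to 80.1% (difference -15.0 points, limma adjusted p = 0.00739). The call on chromosome 4 was lost without HCR replicate 1, 3 or 4 or LCR replicate 2, 3, 4, 5, 7 or 8 (limma adjusted p up to 0.0902), and with each sample centred (0.0618) or without moderation (0.0769). That on chromosome 5 was lost without HCR replicate 2, 4, 5 or 6 or LCR replicate 2, 4, 7 or 8 (up to 0.103). That on chromosome 11 was lost without HCR replicate 2, 3 or 4 or LCR replicate 1, 2, 3, 4, 5, 6 or 7 (up to 0.124), without moderation (0.0836) and with the number of missing windows as covariate (0.0531). With complete windows left out, these 3 calls were lost as well (limma adjusted p = 0.0640, 0.0840 and 0.0770). Fitted on the 12 samples numbered 1 to 6 alone, all 3 were lost too. The call on chromosome 2 was kept in all 14 fits that left out a sample. Also called higher in HCR were chromosome 13 at 95751001 (21.2 points, limma adjusted p = 0.0397) and chromosome 7 at 107396001 (19.0 points, limma adjusted p = 0.0230). Of 24 alternative fits, the call on chromosome 13 was lost in 16 and that on chromosome 7 in 6.

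In the LCR-missing windows the largest difference was a lower level in HCR. On chromosome 5 at 15051001 to 15052000 HCR samples had 2.92% to 18.4%, and LCR replicates 2, 3, 4, 5 and 6 had 53.0%, 51.3%, 60.3%, 75.8% and 45.7%. The groups did not overlap, and their means were 10.6% ± 5.31 (SD, n = 6) and 57.2% ± 11.6 (SD, n = 5), which differed by -3.56 ± 0.46 (SE) in log2 logit units (adjusted p = 0.00551 by limma). The window directly beside it, starting at 15052001, was not called (limma adjusted p = 0.485) and stood at 20.5% ± 5.62 for HCR against 13.7% ± 4.36 for LCR.

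On chromosome 19 at 27340001 to 27341000 HCR samples had 1.84% to 16.5% and the 5 LCR samples with a value had 33.7% to 65.4% (difference -36.9 points, limma adjusted p = 0.0171). Without LCR replicate 5 the call was lost (limma adjusted p = 0.0512), as it was without moderation (0.0524). The window starting at 27330001 was called in the opposite direction, higher in HCR. On chromosome 7 at 18674001 to 18675000, where 4 LCR samples had a value, HCR ran from 52.6% to 66.4% and LCR from 77.9% to 87.5% (limma adjusted p = 0.00835). The nearby window starting at 18672001 went the other way, at 95.9% ± 6.10 for HCR and 82.3% ± 4.09 for LCR, and was not called (limma adjusted p = 0.0566). Directly beside the called window, the one starting at 18675001 had 84.7% in HCR and 84.6% in LCR. On chromosome 5 at 148274001 to 148275000 the means were 44.9% ± 3.67 in HCR and 69.7% ± 4.21 in LCR (n = 6 and 5; limma adjusted p = 0.00198). This was the only called member with 2 more called windows within 10 kb, at 148271001 and 148275001, both lower in HCR (differences of -26.4 and -16.3 points). On chromosome 5 at 151157001 to 151158000 the means were 48.4% ± 3.21 and 72.2% ± 9.32 (limma adjusted p = 0.0323), and the call was lost without any of the 6 HCR samples or LCR replicate 1, 5 or 7 (limma adjusted p up to 0.0796), without moderation (0.0776) and with complete windows left out (0.0628). Fitted on the 12 samples numbered 1 to 6 alone, the call was lost too. Also called lower in HCR were chromosome 2 at 184198001 (-19.3 points, limma adjusted p = 0.0289) and chromosome 18 at 159001 (-14.6 points, limma adjusted p = 0.00859). In the chromosome 18 window the LCR samples ran from 96.4% to 100%. Of 24 alternative fits, the call at 184198001 was lost in 12 and that on chromosome 18 in 2.

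The 4 LCR-missing windows called higher in HCR lay on chromosomes 2, 17 and 1. On chromosome 2 at 133257001 to 133258000 HCR samples ran from 69.2% to 77.4% and LCR samples from 27.5% to 52.9% (difference 27.7 points, limma adjusted p = 0.0154). On chromosome 17 at 61375001 to 61376000 the ranges were 58.9% to 69.3% and 25.2% to 41.4% (27.1 points, limma adjusted p = 0.00739). On chromosome 2 at 98138001 to 98139000 they were 56.2% to 66.8% and 28.1% to 49.3% (23.7 points, limma adjusted p = 0.0291), and this call was lost without HCR replicate 1, 2, 3, 5 or 6 or LCR replicate 6 or 8 (limma adjusted p up to 0.0742). It was also lost with each sample centred (0.0560), without moderation (0.0656), with the covariate (0.0545) and with complete windows left out (0.0698). The fit on the 12 samples numbered 1 to 6 alone lost it as well. On chromosome 1 at 183045001 to 183046000 both lines were low, at 12.8% to 28.0% in HCR and 3.65% to 7.89% in LCR (14.3 points, limma adjusted p = 0.0144), and the call was lost with complete windows left out (0.0708). In all 11 called LCR-missing windows the samples of the lines did not overlap, as in 8 of the 9 called HCR-missing windows. These windows were called for a large line difference in the same values, so the lack of overlap adds no support to the calls.

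**Figure D5:**
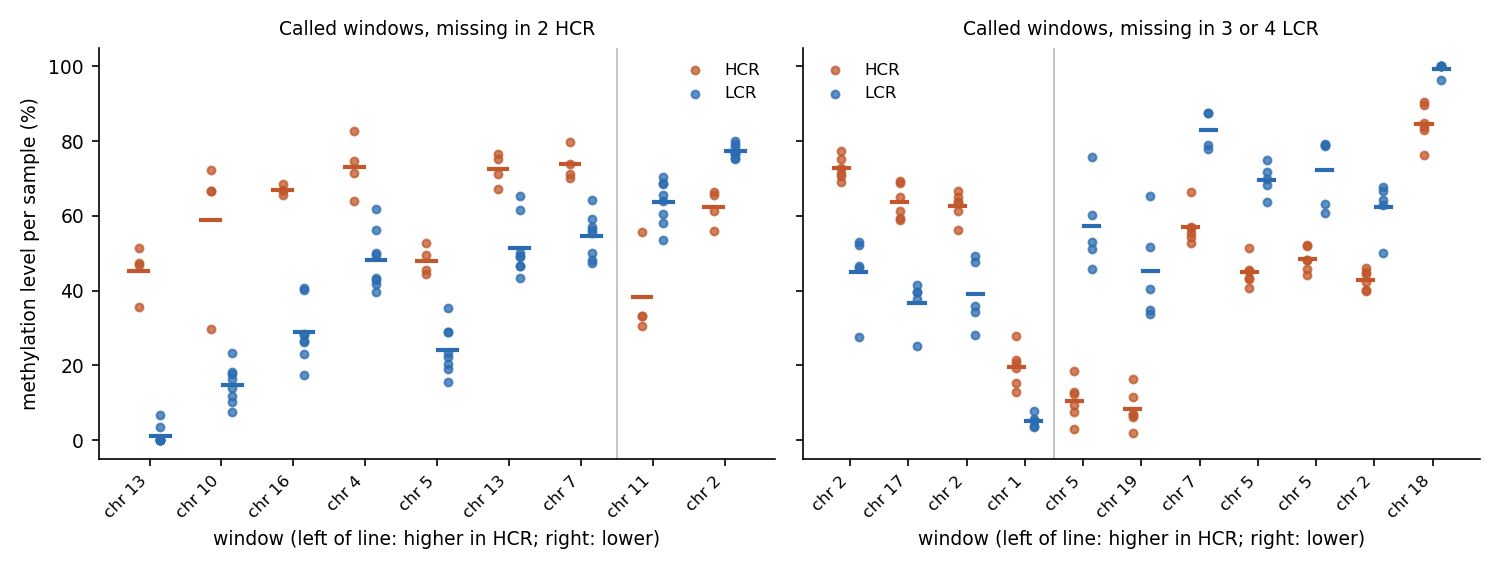
Methylation level per sample (%, vertical axis) in the 9 called HCR-missing (left) and 11 called LCR-missing windows (right), with HCR in orange, LCR in blue, points for the samples with a value and bars for their means. Windows left of the grey line are higher in HCR and those right of it lower, and the points of the lines overlap only in the chromosome 11 window.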

How the data were processed

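Libraries were made from 100 ng of MspI-digested DNA, per the labels' protocols. The submitters' processing notes name FastQC, Trim Galore 0.6.10, Bismark, Bowtie2 and the build rn7. The deposited table gives percent methylation per library in windows of 1000 bp, without read counts, per the file headers. No source used here gives the coverage minimum or says when a value is left out. Columns were matched to samples by library name, and 0 sample columns were left unused.

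The 2 sets were taken by their missing values alone. Windows, lists and tests were chosen with earlier results of these data known. Missing values were left missing. Line differences were fitted with limma 3.58.1 in R 4.3.3 on log2((level + 0.01)/(1 - level + 0.01)), level as a fraction, with a term for line alone, a trended variance prior, two-sided p-values and Benjamini-Hochberg adjustment over 194367 windows. The fit was tested on simulated data with the real pattern of missing values. There the noise was independent between windows, and some members were shifted by 2 or 3 log2 logit units. Most called windows differed by less than 2 such units, so the simulation says little about them. Shares, levels, distances and clusters, computed with Python 3.11.15, pandas 2.3.3 and numpy 2.4.6, are descriptions. Named in each set were up to 5 called windows per direction, by size of the difference in points, and the 3 clusters of most members. The other called windows are given briefly. Neighbouring windows within 10 kb of called members were named after their values were seen. Single CpGs, gene annotation and sequences were not analysed here.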

Additional observations from a re-analysis of the deposited data

Results flagged for a closer look

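A sample far from the rest of its line was found in 5 of the 40 groups of values examined (16 windows and 4 per-sample measures in each line), and about 1 in 20 would be found by chance. On chromosome 10 at 82673001 the value of HCR replicate 3 was 29.8%, while replicates 2, 4 and 6 lay at 66.7% to 72.2%. In the chromosome 11 window at 80839001 HCR replicate 6 stood at 55.8%, and the others at 30.6% to 33.3%. In the chromosome 2 window at 133257001 LCR replicate 3 stood at 27.5%, and the others at 46.2% to 52.9%. In the chromosome 17 window at 61375001 LCR replicate 5 stood at 25.2%, and the others at 37.8% to 41.4%. In the chromosome 7 window at 18674001 HCR replicate 3 stood at 66.4%, and the others at 52.6% to 57.1%. In the windows on chromosomes 10, 2, 17 and 7 the deviating sample still lay on its own line's side of the other line's samples.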

How the results depend on the processing

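Numbers after the name of a setting are calls among HCR-missing windows, LCR-missing windows and all windows, against 9, 11 and 712 as reported. An offset of 0.05 gave 14, 14 and 845, and untransformed levels 15, 13 and 973. The 12 samples numbered 1 to 6 gave 8, 9 and 454. Windows with complete values left out of the fit, chosen after seeing the data, gave 4, 6 and 92. Leaving out each sample gave 6 to 11, 8 to 11 and 469 (without HCR replicate 2) to 580. The replicate block, fitted with limma, gave 0, 0 and 37 (359 and 162 of the members at an unadjusted p under 0.05); the numbers do not pair the samples by their labels, the deviations of same-numbered samples correlated at -0.0236 to 0.0941, and 0 of 6 HCR and 1 of 6 LCR samples correlated best with their own number. Each sample centred gave 9, 10 and 649 (of all windows 324 higher and 325 lower in HCR). The median line differences ran from 1.29 to 1.77 and from 0.514 to 1.04 points without single samples. Only windows with a value in HCR replicate 3 numbered 1793, and only those with a value in LCR replicate 7 numbered 558. Exactly 3 missing LCR values left 1160 windows and exactly 4 left 623. The share with another member nearby was 3.70% and 5.10% for adjacent windows and 38.2% and 27.7% within 100 kb. The cause of these differences was not tested. Of the 20 called windows 20 kept their call with the offset of 0.05, untransformed levels or no variance trend, 17 with the number of missing windows as covariate, 16 centred and 14 without moderation. With the 12 samples numbered 1 to 6, fitted without the block, 14 kept it. It was kept in 10 with complete windows left out and 0 under the block, and none changed direction. Unknown depth limits every level, and a coverage minimum could not be varied.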
